A study of Homo sapiens with 17 samples.

Results

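The genes described here encode the collagens, the laminins, the integrins that bind them, the matrix metalloproteinases (MMPs) that cut them and the lysyl oxidases that cross-link them. They were chosen by symbol from the gene tables of CHP-134, a MYCN-amplified line of human neuroblastoma: COL, LAM, ITG and MMP genes with numbered chains, ITGAV, LOX and LOXL1 to LOXL4. This gave 103 of 60662 genes, namely 44 collagens, 12 laminins, 20 integrins, 22 MMPs and 5 lysyl oxidases. RNA came from cultured cells given the solvent DMSO, or kept for 1, 3 or 6 days in ATRA (all-trans retinoic acid, 2 µM), with 2 libraries per group, and from subcutaneous tumors of luciferase-labeled CHP-134 cells in female athymic nude mice. Of the tumors, 5 were controls, which the labels call untreated and the study calls vehicle-treated. The other 4 came from mice given 13-cis-retinoic acid by oral gavage at 25 mg/kg with 2 doses per day (RA tumors). The labels give neither the length of dosing nor the time from the last dose to collection. The study states a dosing schedule of 12 weeks. For the tumors in which it measured retinoids, it states collection within 2 weeks of the last treatment. All groups derive from the same line, and the host mice lack T cells but keep their own stroma, vessels and myeloid cells. Many CHP-134 cells die in ATRA, so the 6-day libraries hold RNA of the cells that remained. Library kit, host, retinoid and route all differ between cells and tumors and cannot be told apart there.

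Collagens are triple helices of alpha chains: the fibrillar types build cables, type IV builds the sheet of basement membranes, and transmembrane types sit on the cell surface. Laminins are trimers of an alpha, a beta and a gamma chain that organize basement membranes, and integrins are alpha and beta pairs that tether cells to both and signal inward. Lysyl oxidases cross-link collagen and elastin, while MMPs cut matrix proteins and are held in check by TIMP inhibitors. In the developing nervous system these proteins guide the migration of neural crest cells and the growth of axons.

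Library totals were 31607051 to 39422897 counts in cells and 17266558 to 29078889 in tumors. The cell line was checked against 12 adrenergic neuroblastoma markers: their summed level was 3461 to 5155 CPM (counts scaled to a common library size by TMM over all 17 libraries) across the series, and all 12 had counts in every group. MYCN gave the largest part of that sum, with means of 1964 CPM in DMSO cells and 2826 in control tumors, so the sum says little of the others. PECAM1, which marks endothelium, reached 1.83 CPM at most in tumors, and PTPRC, which marks leukocytes, 0.356. The 12 fibroblast markers summed to 281.6 to 287.0 CPM in DMSO cells and 63.4 to 86.1 in tumors, mainly from FBLN1 and THY1, with DPT, MFAP5 and TWIST2 at or near 0. The 12 endothelial markers summed to 3.08 to 8.37 CPM in tumors and the 12 leukocyte markers to 2.17 to 4.48. TYROBP had no count in any library. Summed endothelial markers rose from 1.77 to 2.25 CPM in DMSO cells to 145.2 to 157.0 at 6 days, nearly all of it CLDN5, and summed leukocyte markers from 0.846 to 0.968 CPM to 20.8 to 21.2, nearly all of it LAPTM5, while PTPRC was at 0 at 6 days. Over 6 skeletal muscle markers control tumor 1 summed to 65.7 CPM, mostly MYH4 (47.7) and ACTA1 (15.7), against 0.89 to 2.29 in the other control tumors. DMSO cells summed to 31.87 and 32.05 CPM on that list, nearly all of it CKM (31.38 and 31.64). The study calls its culture libraries independent replicates, but no label says that those of a group came from separate cultures, so for cells the p-values measure the spread between these libraries. In bulk RNA, fewer cells of a type and less RNA per cell cannot be told apart.

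At least 1 CPM was reached by 56 of the 103 genes in DMSO cells, 52 at 1 day, 53 at 3 days, 58 at 6 days, 66 in control tumors and 67 in RA tumors. MMP3, MMP7, MMP20, MMP26 and COL4A5 had no count in any of the 17 libraries. Levels of different genes are compared here as CPM per kb of exon. On that scale MMP24, MMP16 and MMP2 led the MMPs in DMSO cells (29.5, 17 and 11.4), LOX (21.9) and LOXL1 (13.5) the lysyl oxidases, LAMB1 (17.2) and LAMC1 (9.40) the laminins, ITGB1 (15.9) the integrins and COL6A1 (12.5) the collagens. At 6 days of ATRA the leaders were MMP2 (48.7), LOXL4 (43.0), LAMA5 (27.5), COL26A1 (22.9), COL25A1 (22.4), COL6A1 (21.8) and ITGB1 (11.9). Next to LAMB1 and LAMC1, the common beta and gamma chains, LAMA1 was the highest alpha chain in DMSO cells and LAMA5 at 6 days.

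The question of the culture series is how a retinoid changes the cells over time. A gene was called where edgeR's quasi-likelihood test gave a Benjamini-Hochberg adjusted p (FDR) under 0.05 and the change was over 2-fold, and ± gives the SE of a log2 fold change. Of the 103 genes, 71 had enough counts to be tested in cells. At 6 days against DMSO 23 of the 71 were higher (32.4%), beside 18.8% of all 20237 genes tested, and 21 were lower (29.6%), beside 12.3%. The median log2 fold change was −0.01, beside 0.04 over all genes tested, and rises and falls were near equal in number. By class, 13 of 32 tested collagens rose and 8 fell, 3 of 17 integrins rose and 8 fell, 2 of 9 laminins rose and 3 fell, 4 of 8 MMPs rose and 1 fell, and of 5 lysyl oxidases 1 rose and 1 fell. Genes scarce in DMSO could pass the count filter through the 6-day libraries alone, as MMP8 and COL4A3 did. Such genes, among all genes too, could hardly be called lower at 6 days, and the counts of rises include them.

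**Figure D1:**
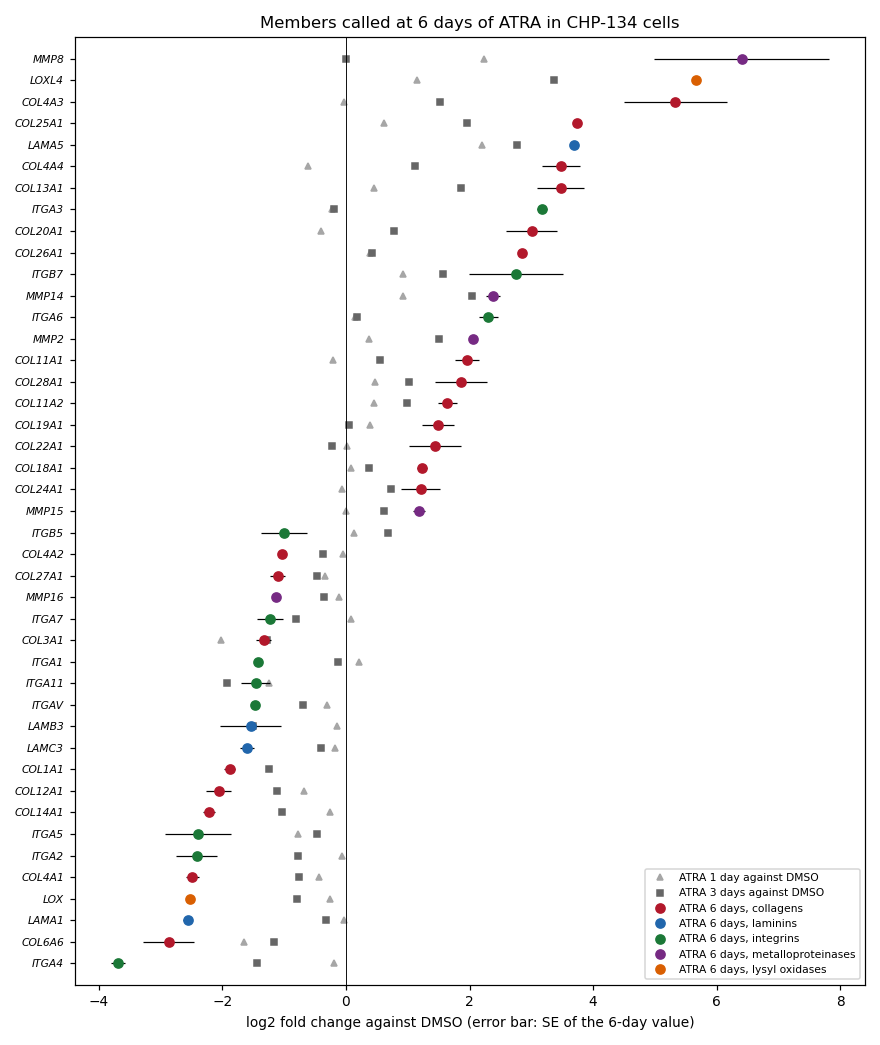
Log2 fold change against DMSO (x axis) of 43 of the 44 genes called at 6 days of ATRA in CHP-134 cells (y axis), with triangles for 1 day, squares for 3 days and colored circles with SE bars for 6 days, 2 libraries per group. LAMA5 (3.70) and LOXL4 (5.66) had already risen at 1 day, while ITGA3 (3.17) and COL26A1 (2.85) rose between 3 and 6 days.

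Laminin alpha chains showed opposite courses. LAMA5 (ENSG00000130702.15, chromosome 20, 62307955 to 62367312, minus strand), the alpha 5 chain of laminins that surround mature epithelia, vessels and synapses, was at 29.0 and 30.2 CPM in DMSO, 135.6 and 134.1 after 1 day, 197 and 198 after 3 days, then 384 and 401 after 6 days. Each step lay beyond the spread of the pairs, with log2 fold changes of 2.21 ± 0.03, 2.77 ± 0.03 and 3.70 ± 0.03 against DMSO (FDR 2.6e-34, 1.8e-38 and 1.4e-43). LAMA1 (ENSG00000101680.15), the alpha 1 chain of the early embryonic laminin, was at 38.1 and 40.6 CPM in DMSO, 36.7 and 39.4 after 1 day, 30.5 and 31.1 after 3 days, then 6.87 and 6.76 after 6 days. Its libraries at 1 day overlapped those of DMSO, and its fall at 6 days (−2.56 ± 0.07, FDR 2.3e-28) came mostly after 3 days. ADRM1, opposite LAMA5, went from 155.9 to 79.5 CPM between DMSO and 6 days. Per kb of exon, LAMA1 was above LAMA5 in DMSO cells (2.48 and 2.07 CPM per kb) and far below it at 6 days (0.43 and 27.5).

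The other laminin chains changed less or were scarce. LAMB1 was at 316 and 323 CPM in DMSO, 326 and 328 after 1 day, 281 and 280.5 after 3 days, then 219 and 218 after 6 days (−0.58 at 6 days, under 2-fold). LAMC1 was at 79.8 and 79.0 CPM in DMSO, 90.7 and 91.2 after 1 day, 105 and 112 after 3 days, then 106 and 105 after 6 days, also under 2-fold. Among the low chains, LAMC3 fell (−1.60 ± 0.11) from 11.6 to 3.91 CPM and LAMB3 fell (−1.54 ± 0.49) from 0.609 to 0.213 CPM. The LAMB3 call was lost without the ATRA library 2 of 6 days (−1.06, FDR 0.117) and in DESeq2 (FDR 0.063). LAMB2 fell between 3 and 6 days (−1.10 ± 0.23), and without ATRA library 1 of 6 days that value was −0.96.

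The start of LAMA5 is shown because the gene had the lowest FDR of the 71 at 6 days, and is taken from RefSeq promoter windows (GRCh38) as the 250 bases before the start on the minus strand, chr20:62367313-62367562. Capitals mark GC boxes (GGGCGG on either strand). This stretch is 82.8% G and C and holds 5 GC boxes and no CCAAT box. The searched TATA box, TATAAA, was not found in it on either strand. The same holds for AGGTCA, the core letters of many nuclear receptor sites.
LAMA5: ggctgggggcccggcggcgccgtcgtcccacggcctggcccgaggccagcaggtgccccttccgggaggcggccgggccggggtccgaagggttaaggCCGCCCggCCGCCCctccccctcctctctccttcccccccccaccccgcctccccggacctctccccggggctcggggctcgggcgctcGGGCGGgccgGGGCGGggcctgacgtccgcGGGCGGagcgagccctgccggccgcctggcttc

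Of the 3 laminin receptor alpha chains 2 rose and 1 fell. ITGA3 (ENSG00000005884.18, chromosome 17, 50055968 to 50090481), which binds laminins with the alpha 5 chain, was at 5.46 and 5.40 CPM in DMSO, 5.04 and 4.13 after 1 day, 4.14 and 5.09 after 3 days, then 49.5 and 50.3 after 6 days. The 6-day libraries stood apart from all earlier ones (3.17 ± 0.08, FDR 7.6e-29). ITGA6, a further laminin receptor chain, was at 1.67 and 1.69 CPM in DMSO, 1.94 and 1.73 after 1 day, 1.96 and 1.74 after 3 days, then 7.80 and 9.17 after 6 days (2.31 ± 0.16). ITGA7, the laminin receptor of muscle, fell (−1.23 ± 0.21). Of 4 tested collagen receptor chains 3 fell: ITGA1 (−1.42 ± 0.05, with 45.6 and 46.9 CPM after 1 day, 36.7 and 35.6 after 3 days and 15.7 and 15.4 at 6 days), ITGA2 (−2.41 ± 0.33) and ITGA11 (−1.46 ± 0.23), and ITGA10 was at −0.49.

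ITGA4, whose product binds fibronectin and VCAM1 and marks migrating neural crest cells, had the lowest log2 fold change of the 71. Its libraries were at 17.6 and 19 CPM in DMSO, 16 and 15.4 after 1 day, 6.07 and 7.11 after 3 days, then 1.49 and 1.41 after 6 days, a change of −3.69 ± 0.12 (FDR 9.7e-26). CERKL, which overlaps ITGA4 on the opposite strand, went from 83.6 to 197.0 CPM over the same days. The fibronectin receptor chain ITGA5 (−2.39 ± 0.53) and ITGAV (−1.47 ± 0.06), the alpha chain of the vitronectin receptors, fell as well, ITGA5 by way of 0.338 and 0.447 CPM at 1 day and 0.365 and 0.590 at 3 days to 0.0661 and 0.192 at 6 days, and ITGAV from 43.4 to 16.1 CPM. Of the beta chains, ITGB1, the common partner, was at 236 and 228 CPM in DMSO, 208 and 205 after 1 day, 172 and 166 after 3 days, then 174 and 172 after 6 days, a fall of under 2-fold (−0.46). ITGB5, at 0.600 and 1.16 CPM in DMSO, fell (−1.01 ± 0.37), and ITGB7 rose (2.75 ± 0.76), at under 1 CPM. The ITGB5 call was lost without DMSO library 2 (−0.49) or ATRA library 2 of 6 days (−0.94) and in DESeq2 (FDR 0.0840), and ITGB7 lies opposite ZNF740, at 54.5 CPM in DMSO cells. ITGA8 was called at 3 days (1.62 ± 0.60), at 0.401 CPM, and that call was lost without either DMSO library, either 3-day library or ATRA library 1 of 6 days (FDR up to 0.198).

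**Figure D2:**
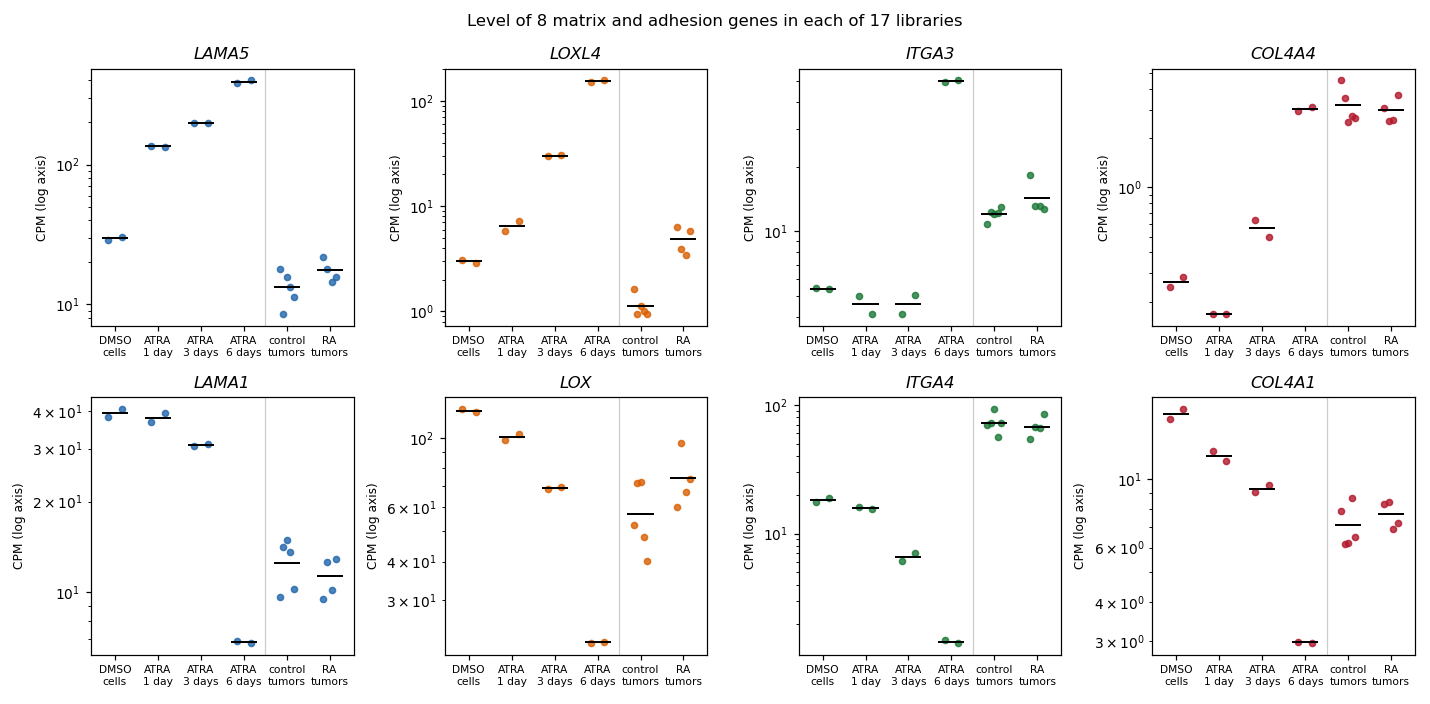
CPM (log axes, with a separate range in each panel) of 8 genes in each of the 17 libraries, a point per library and a line at the group mean, with cells left of the gray line and tumors right of it. LAMA5, LOXL4, ITGA3 and COL4A4 rose over days of ATRA to 6-day means of 393, 155, 49.9 and 3.03 CPM, while LAMA1, LOX, ITGA4 and COL4A1 fell, and of these 8 genes LOXL4 alone was called between RA and control tumors.

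Type IV collagen genes lie in pairs that share a start region and are read in opposite directions, and in the 2 pairs that could be tested both genes moved in the same direction. COL4A1 (ENSG00000187498.16), with COL4A2 the chain of every basement membrane, was at 15.6 and 16.8 CPM in DMSO, 12.3 and 11.4 after 1 day, 9.08 and 9.53 after 3 days, then 2.97 and 2.95 after 6 days. COL4A2 went from 45.2 and 46.1 CPM in DMSO to 23.5 and 22.0 at 6 days. The log2 fold changes at 6 days were −2.48 ± 0.10 and −1.04 ± 0.05, and that of COL4A2 was −0.99 without ATRA library 2 of 6 days. COL4A4, a chain of the adult kidney and inner ear membrane, was at 0.246 and 0.281 CPM in DMSO, 0.169 and 0.168 after 1 day, 0.630 and 0.497 after 3 days, then 2.94 and 3.11 after 6 days (3.48 ± 0.31). Its partner COL4A3 had 1 and 0 counts in DMSO and 26 and 20 at 6 days (5.33 ± 0.83). That fold rests on 1 count in DMSO cells, and AC097662.1 on the opposite strand was at 2.88 CPM there and 3.65 at 6 days. The annotated bodies of COL4A1 and COL4A2 overlap on opposite strands. COL4A6 had 10 counts over all 17 libraries. COL18A1, the basement membrane collagen from which endostatin is cut, rose (1.23 ± 0.08) from 10 to 24.1 CPM.

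The shared start regions are printed because each pair moved in a common direction. The starts of COL4A1 and COL4A2 are 127 bases apart on chromosome 13, and the stretch between them that no annotated exon covers is chr13:110307158-110307257 (GRCh38, plus strand, 78.0% G and C). Those of COL4A4 and COL4A3 are 419 bases apart on chromosome 2, and the exon-free stretch next to the COL4A4 start is chr2:227164206-227164395 (plus strand, 72.6% G and C). Capitals mark a CCAAT box and a GC box in the first, and the second holds none of the motifs searched.
COL4A1 to COL4A2: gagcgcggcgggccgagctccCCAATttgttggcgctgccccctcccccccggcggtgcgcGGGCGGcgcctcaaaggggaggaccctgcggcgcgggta
COL4A4 to COL4A3: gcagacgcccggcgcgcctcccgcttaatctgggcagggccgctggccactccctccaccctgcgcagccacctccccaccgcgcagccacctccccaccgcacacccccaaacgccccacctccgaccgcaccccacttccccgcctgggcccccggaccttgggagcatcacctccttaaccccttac

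Among the other collagens, both tested transmembrane types rose. COL25A1 (ENSG00000188517.16), a transmembrane collagen of neurons needed for motor nerves to enter muscle, was at 14.5 and 14.1 CPM in DMSO, 20.7 and 22.6 after 1 day, 54 and 54.8 after 3 days, then 197 and 194 after 6 days (3.74 ± 0.04, FDR 1.7e-39). COL26A1 was at 9.96 and 9.21 CPM in DMSO, 12.4 and 12.5 after 1 day, 13.0 and 12.2 after 3 days, then 69.1 and 72.8 after 6 days (2.85 ± 0.06). COL13A1, a transmembrane collagen of the neuromuscular junction, was at 0.218 and 0.125 CPM in DMSO, 0.169 and 0.307 after 1 day, 0.696 and 0.559 after 3 days, then 2.21 and 1.83 after 6 days (3.47 ± 0.38). COL25A1 was called from 3 days on, and COL26A1 at 6 days. COL11A1 (1.96 ± 0.19) and COL11A2 (1.64 ± 0.15), fibrillar chains known from cartilage, rose together, as did COL24A1 (1.21 ± 0.31). The fibril-associated COL19A1 (1.49 ± 0.26), COL20A1 (3.00 ± 0.41) and COL22A1 (1.44 ± 0.42) and the von Willebrand domain collagen COL28A1 (1.86 ± 0.42) rose from under 1 CPM, COL19A1 to 0.929 and 1.00 CPM after 1 day, 0.696 and 0.807 after 3 days and 2.08 and 2.21 at 6 days. In the fit over all 17 libraries COL19A1 was not called (FDR 0.0801). LMBRD1, which lies opposite COL19A1, rose as well, from a mean of 13.1 CPM in DMSO cells to 38.6 at 6 days. The COL22A1 call was lost without DMSO library 1 (1.03, FDR 0.0747) and in DESeq2 (FDR 0.0534), and that of COL24A1 without DMSO library 2 or ATRA library 2 of 6 days (0.90 at the least).

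Several collagens of connective tissue fell. COL1A1 and COL3A1, the fibrillar chains of loose connective tissue, dropped within the first day: COL1A1 was at 18.0 and 17.8 CPM in DMSO, 4.76 and 4.83 after 1 day, 7.59 and 7.14 after 3 days, then 4.79 and 5.13 after 6 days. COL3A1 was at 11 and 11.6 CPM in DMSO, 2.79 and 2.68 after 1 day, 4.74 and 4.38 after 3 days, then 4.23 and 4.94 after 6 days. All treated libraries lay below both DMSO libraries for either gene, with changes of −1.88 ± 0.09 and −1.33 ± 0.12 at 6 days. In 1 fit over all 17 libraries, whose spread includes the tumors, COL1A1 and COL3A1 were not called at 1 day (FDR 0.407 and 0.444), at 3 days (FDR 0.383 and 0.441) or at 6 days (FDR 0.0855 and 0.268). COL1A2, which joins COL1A1 in type I collagen, was not called at any time (−0.74, 0.06 and −0.46). COL14A1 (−2.21 ± 0.10), COL12A1 (−2.06 ± 0.20), COL27A1 (−1.10 ± 0.13) and COL6A6 (−2.87 ± 0.41) fell at 6 days, COL6A6 from 1.23 and 1.37 CPM in DMSO to 0.366 and 0.447 after 1 day, 0.630 and 0.497 after 3 days, then 0.198 and 0.160 after 6 days. COL6A1, the most abundant collagen per kb in DMSO cells, was at 67.7 and 70.5 CPM in DMSO, 62.6 and 62.3 after 1 day, 58.8 and 59.8 after 3 days, then 120.2 and 121 after 6 days (0.77, under 2-fold). COL6A3, the third chain of type VI collagen, was at 2.62 and 3.09 CPM in DMSO, 3.46 and 4.41 after 1 day, 1.52 and 1.43 after 3 days, then 1.88 and 2.21 after 6 days, not called. COL5A1, a fibrillar chain that sets fibril width, peaked in the middle: 44.1 and 44.8 CPM in DMSO, 60.6 and 62.2 after 1 day, 139.6 and 138 after 3 days, then 50.1 and 49.7 after 6 days. It was called higher at 3 days (1.67 ± 0.04) and lower from 3 to 6 days (−1.54 ± 0.04).

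Of the lysyl oxidases, LOXL4 rose and LOX fell. LOXL4 (ENSG00000138131.4, chromosome 10, 98247690 to 98268194) was at 3.06 and 2.90 CPM in DMSO, 5.80 and 7.29 after 1 day, 29.8 and 30.5 after 3 days, then 153 and 157 after 6 days. Its log2 fold changes were 1.15 ± 0.11, 3.37 ± 0.08 and 5.66 ± 0.07, and the 1-day value was 0.97 without ATRA library 2 of that day. LOX (ENSG00000113083.14), the founding enzyme of the family, was at 124 and 121 CPM in DMSO, 98.5 and 103 after 1 day, 68.6 and 69.6 after 3 days, then 21.9 and 22.1 after 6 days (−2.51 ± 0.04, FDR 3.1e-35). No treated library of LOX reached the DMSO level, and per kb LOXL4 passed it at 6 days (43.0 against 3.92 CPM per kb). LOXL1 was at 48.0 and 49.9 CPM in DMSO, 52.1 and 50.8 after 1 day, 76.0 and 74.7 after 3 days, then 70.1 and 70.8 after 6 days, and LOXL3 had a mean of 28.7 CPM in DMSO and 23.7 at 6 days, both under 2-fold. LOXL2 was at 3.14 and 3.56 CPM in DMSO, 4.22 and 3.10 after 1 day, 3.78 and 4.04 after 3 days, then 2.08 and 2.24 after 6 days, also not called.

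The start of LOXL4 is shown because it was called in culture and in tumors. Its 250 bases before the start are chr10:98268195-98268444 (GRCh38, minus strand, 86.4% G and C), with 6 GC boxes in capitals and none of the other motifs.
LOXL4: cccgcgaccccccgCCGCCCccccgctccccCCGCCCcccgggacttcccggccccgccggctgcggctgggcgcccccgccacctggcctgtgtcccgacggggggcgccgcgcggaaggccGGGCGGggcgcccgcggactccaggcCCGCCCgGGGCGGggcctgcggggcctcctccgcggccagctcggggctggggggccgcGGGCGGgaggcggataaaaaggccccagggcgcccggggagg

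Start windows of 300 bases (250 before the start and 50 after it) were found in RefSeq for 70 of the 103 genes, in 92 windows. GGGCGG lay on either strand in 53.3% of them, beside 45.0% of all 35116 windows, CCAAT in 29.3% beside 34.6%, TATAAA in 17.4% beside 11.5%, and AGGTCA in 4.35% beside 13.8%. For genes called higher at 6 days AGGTCA was in 1 of 24 windows, and for those called lower in 1 of 21. These shares describe letters in a short window and carry no test.

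Among the MMPs, MMP2 and MMP14 both rose. MMP2, which cuts type IV collagen and gelatin, was at 54 and 53.1 CPM in DMSO, 68.0 and 69.2 after 1 day, 149 and 149.5 after 3 days, then 226 and 232 after 6 days (2.06 ± 0.03, FDR 1.0e-36). MMP14, a membrane enzyme that can activate pro-MMP2, was at 2.87 and 2.31 CPM in DMSO, 4.82 and 5.00 after 1 day, 10.6 and 10.3 after 3 days, then 13.3 and 14.4 after 6 days (2.38 ± 0.12). Both were called from 3 days on (1.51 ± 0.03 and 2.04 ± 0.12). MMP15 rose at 6 days (1.18 ± 0.10). MMP16, a membrane enzyme abundant in brain, was at 206 and 207 CPM in DMSO, 188 and 188 after 1 day, 157 and 158 after 3 days, then 98.6 and 94.6 after 6 days (−1.13 ± 0.03). MMP24, another neural membrane enzyme, was at 125 and 133 CPM in DMSO, 128 and 125 after 1 day, 114 and 112 after 3 days, then 84.2 and 85.9 after 6 days, not called. MMP17 fell at 3 days (−1.23 ± 0.08, from 19.1 to 7.91 CPM) and stood at 15.7 CPM at 6 days. The collagenase MMP8 had no count in DMSO and 10 in each 6-day library, at least 7.45-fold higher than a floor of 3 counts over the DMSO group, which covers counting error only.

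The comparisons at 1, 3 and 6 days share the DMSO libraries, so their values are given side by side. At 1 day LAMA5 and LOXL4 were higher (2 of 71, 2.82%, beside 1.95% of all genes) and COL3A1 (−2.03 ± 0.12), COL1A1 (−1.88 ± 0.09), COL6A6 (−1.65 ± 0.34) and ITGA11 (−1.25 ± 0.22) lower (4 of 71, 5.63%, beside 0.791%). At 3 days 9 were higher (12.7%, beside 5.45%) and 9 lower (12.7%, beside 2.43%): COL25A1 (1.96 ± 0.05), COL13A1 (1.85 ± 0.46) and COL4A4 (1.12 ± 0.39) had joined the rises and ITGA11 (−1.92 ± 0.24), COL3A1 (−1.27 ± 0.12), COL1A1 (−1.25 ± 0.09), COL6A6 (−1.17 ± 0.33), ITGA4 (−1.44 ± 0.09), LAMB3 (−1.50 ± 0.49), COL12A1 (−1.12 ± 0.18) and COL14A1 (−1.03 ± 0.08) were among the falls. In the fit over all 17 libraries ITGA11 was not called at 1 day (FDR 0.111), nor were COL12A1 (FDR 0.271), COL4A4 (FDR 0.0918) and COL6A6 (FDR 0.0557) at 3 days. COL6A6 was not called without ATRA library 2 of 3 days (FDR 0.0554) either. The COL4A4 call at 3 days was lost without DMSO library 1 or 2 or ATRA library 1 of that day (FDR up to 0.130). Without ATRA library 1 of 3 days COL12A1 was at −0.98 and COL14A1 at −0.99, the latter also at −1.0 without DMSO library 2, and LAMB3 was not called without DMSO library 1 or ATRA library 2 of 3 days (FDR up to 0.206). From 3 to 6 days 15 were higher (21.1%, beside 12.7%) and 13 lower (18.3%, beside 8.41%), with COL4A3 (3.80 ± 0.70), ITGA3 (3.36 ± 0.09), COL26A1 (2.43 ± 0.06) and LOXL4 (2.29 ± 0.05) among the rises and ITGA4 (−2.25 ± 0.14), LAMA1 (−2.24 ± 0.07) and LOX (−1.72 ± 0.04) among the falls. Other rises in that interval were COL4A4 (2.36 ± 0.27), COL20A1 (2.22 ± 0.38), ITGA6 (2.13 ± 0.16), COL25A1 (1.78 ± 0.04), COL22A1 (1.67 ± 0.44), COL13A1 (1.62 ± 0.31), COL19A1 (1.44 ± 0.27), COL11A1 (1.42 ± 0.18) and MMP8, which had no count at 3 days. The other falls were ITGA5 (−1.92 ± 0.57), COL4A1 (−1.72 ± 0.11), COL6A6 (−1.69 ± 0.47), ITGB5 (−1.69 ± 0.35), ITGA2 (−1.64 ± 0.37), ITGA1 (−1.29 ± 0.06), LAMC3 (−1.19 ± 0.11) and COL14A1 (−1.18 ± 0.11), beside LAMB2 and COL5A1 above, and ITGA5 was not called without ATRA library 2 of 3 days or library 1 of 6 days (FDR up to 0.0725). COL9A3, a fibril-associated chain, was called in this interval (1.21 ± 0.26) and not against DMSO, and its value was 0.92 without ATRA library 2 of 3 days.

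Genes that work with these proteins were counted from 6 lists of 96 genes. At 6 days against DMSO, 1 of 22 tested collagen-processing enzymes and chaperones rose and 6 fell (median −0.59, beside 0.04 over all genes), among them the procollagen peptidases ADAMTS2 (2.25 ± 0.16), ADAMTS3 (−3.20 ± 0.14) and ADAMTS14 (−3.17 ± 0.28). Of 6 other basement membrane proteins 3 rose and 1 fell: AGRN, the agrin of nerve-muscle synapses, rose (1.54 ± 0.16), and HSPG2, which encodes perlecan, fell (−2.42 ± 0.06). Of 28 other matrix glycoproteins and proteoglycans 6 rose and 14 fell (median −0.71), with rises in TNR (5.48 ± 0.42) and NCAN (3.09 ± 0.03), proteins of the brain matrix, and falls in ACAN (−6.91 ± 1.21) and TGFBI (−3.62 ± 0.47). Of 19 integrin adhesion adaptors 1 rose and 4 fell (median −0.35), PARVA most (−1.97 ± 0.12). Of 8 other collagen and laminin receptors 2 rose and 4 fell (median −0.69), with DDR1, a collagen-sensing kinase, up (1.98 ± 0.04) and CD44 down (−3.78 ± 0.47). Of 4 tested metalloproteinase inhibitors, TIMP3 rose (1.98 ± 0.04) and TIMP1 fell (−1.56 ± 0.36). TLL1, a procollagen peptidase, was higher at 1 and 3 days (1.55 ± 0.21 and 1.88 ± 0.21). Over the 6 lists 14 of 87 tested genes rose at 6 days and 30 fell, beside 18.8% and 12.3% of all genes tested.

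In tumors the question is what oral 13-cis-retinoic acid did to the same genes. Of 78 tested, 1 was higher (1.28%, beside 0.246% of all 21098 genes tested) and 0 lower (beside 0.0379%), with a median of −0.01, as over all genes. LOXL4 was that gene: it was at 1.62, 0.948, 1.13, 1.02 and 0.943 CPM in control tumors and at 6.38, 3.9, 3.40 and 5.78 in RA tumors. The groups did not overlap, and the log2 fold change was 2.10 ± 0.24 (FDR 0.000941), with values of 1.94 to 2.26 when any library was left out. At an unadjusted p under 0.05, edgeR had 8 of the 78 higher and 3 lower, beside 3257 of all 21098 genes in either direction. DESeq2 called 1 higher and 0 lower, beside 64 and 17 of all genes. MMP2 (0.39 ± 0.08, FDR 0.0205) and MMP15 (0.80 ± 0.17, FDR 0.0324) passed the FDR and not the fold threshold. MMP2 was at 29.7, 32, 32.3, 27.3 and 27.8 CPM in control tumors and at 36.8, 38.3, 38.1 and 43.1 in RA tumors, again without overlap.

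Of 81 partner genes tested in tumors, edgeR and DESeq2 each called 0. At an unadjusted p under 0.05 edgeR had 12 higher and 4 lower, beside 3257 of all 21098 genes in either direction. For LAMA5 and COL25A1, which rose in culture, the groups of tumors overlapped: LAMA5 was at 17.9, 8.53, 15.6, 13.3 and 11.3 CPM in control and 21.8, 18.0, 14.6 and 15.7 in RA tumors (0.39 ± 0.20, FDR 0.379), and COL25A1 at 6.05, 12.5, 11, 11.3 and 6.91 in control and 10.5, 8.24, 9.41 and 9.53 in RA tumors (−0.03 ± 0.19). For MMP15 they did not overlap (2.60 to 4.46 CPM in control and 5.03 to 6.70 in RA tumors), nor for COL18A1 (4.71 to 7.23 and 7.43 to 9.23, 0.32 ± 0.14, FDR 0.303) and ITGAV (14.1 to 16.2 and 12.4 to 14.0, −0.19 ± 0.09, FDR 0.311), none of which was called. The share of all genes whose tumor groups do not overlap was not counted, so a lack of overlap alone does not set a gene apart. Interstitial collagen varied between tumors. COL1A1 was at 21.9, 11.1, 18.2, 74.0 and 12.7 CPM in control and 25.2, 12.8, 14.5 and 11.4 in RA tumors, and COL3A1 at 5.45, 1.56, 2.67, 18.3 and 2.41 in control and 3.69, 1.51, 2.69 and 1.04 in RA tumors (−1.49, FDR 0.463). Control tumor 4, the highest in both, also had the most PDGFRA (2.7 CPM), POSTN (1.43) and DCN (3.21) of the tumors, markers of fibroblasts. Its FBLN1 (27.4 CPM) was the lowest of the control tumors, and its sum over the 12 fibroblast markers (67.7 CPM) lay inside their range of 64.5 to 74.5. The part of host tissue in these values was not tested. COL1A2 was at 22.5, 11.1, 22.1, 18.3 and 16.7 CPM in control and 7.55, 8.35, 5.48 and 20.2 in RA tumors (−0.79, FDR 0.392), and without RA tumor 4 it was called lower (−1.34, FDR 0.0139).

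**Figure D3:**
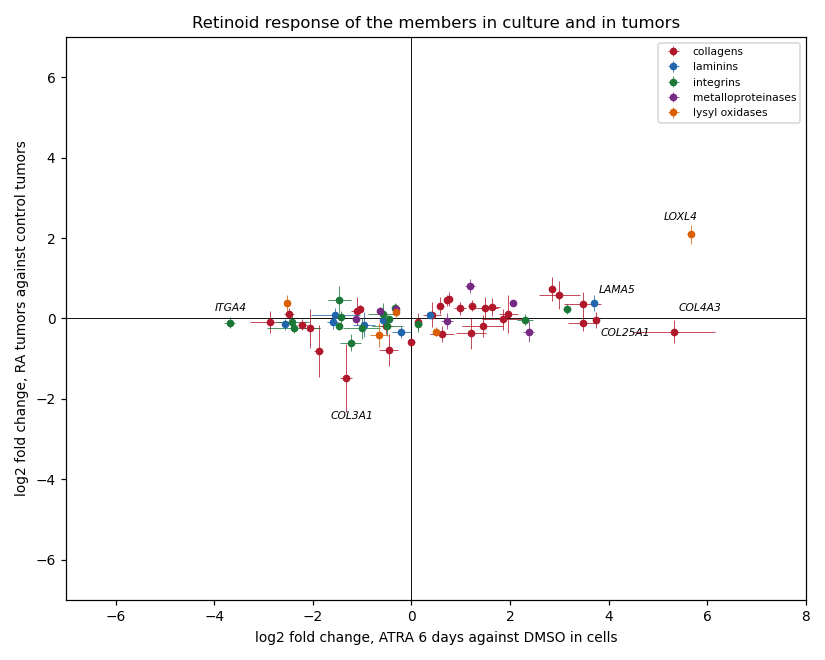
Log2 fold change with SE of RA against control tumors (y axis, 4 and 5 tumors) against that of 6 days of ATRA over DMSO in cells (x axis, 2 libraries each) for 66 of the 67 genes tested in both, colored by class, on nearly equal axes. Culture changes spread from −3.69 for ITGA4 to 5.66 for LOXL4, while tumor values ran from −1.49 for COL3A1 (not called) to 2.10 for LOXL4, the next highest being 0.80 for MMP15.

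The difference of the 2 retinoid effects was tested in the fit over all 17 libraries, with compound, dose, time and host differing between its arms. Of 86 tested genes 15 had a higher value in tumors (17.4%, beside 7.78% of 25787 genes) and 20 a lower value (23.3%, beside 13.1%). Among the lower values were those of genes that had risen in culture, COL25A1 (−3.81 ± 0.28), LOXL4 (−3.60 ± 0.31), COL4A4 (−3.60 ± 0.40), LAMA5 (−3.34 ± 0.29), ITGA3 (−2.96 ± 0.19), MMP14 (−2.75 ± 0.37) and COL26A1 (−2.16 ± 0.33). Higher values were found for ITGA4 (3.56 ± 0.30), LOX (2.87 ± 0.32), COL4A1 (2.57 ± 0.20) and LAMA1 (2.39 ± 0.21), which had fallen in culture. The difference contains the culture change with its sign reversed, so where the tumor change is small its sign is set by culture. The counts above therefore repeat in part those of the culture series. LOXL4 rose in both settings, and by less in tumors.

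Control tumors were compared with DMSO cells to see how these genes differ between growth in a mouse and in a dish. Of 86 tested genes 32 were higher in tumors (37.2%, beside 31.5% of 25787) and 16 lower (18.6%, beside 11.4%), with a median of 0.57 beside 0.25 over all genes. The result differed with the presence of an abundant gene on the opposite strand. Of all 4239 located genes under 1 CPM in DMSO cells that overlap a gene on the opposite strand at 1 CPM or more and at 10 or more times their own level, 84.6% were higher in tumors, against 53.1% of 6032 such low genes with no opposite-strand gene at 1 CPM or more. Of the genes described here, 7 such low ones were tested and 6 of them were higher, and of 23 low ones with no opposite-strand gene at 1 CPM or more 19 were higher. At any level of their own, 9 tested ones lie opposite a gene at 10 or more times their level, and 7 of them were higher and 0 lower, beside 75.8% and 2.8% of 4967 genes. Genes under 1 CPM in DMSO cells, or far below an opposite gene there, were picked by the baseline of this comparison. Low genes could also pass the count filter through other groups. Higher calls were thus favored in advance and lower calls unlikely, among all genes too, so these counts carry no test. Among the 63 with no opposite-strand gene at 1 CPM or more, 23 were higher and 9 lower, beside 23.7% and 13.0% of 17045 genes.

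Of the 12 adrenergic markers 5 were higher in control tumors than in DMSO cells and 3 lower. GATA3 had means of 316 CPM in DMSO cells and 39.4 in control tumors, PHOX2A 33.2 and 4.57, and DDC 1.40 and 10.9. Markers of other cell types moved in this comparison too. Of 6 tested Schwann cell markers 5 were higher in control tumors and 1 lower, with SOX10 at 0 in DMSO cells and 0.890 to 2.16 CPM in control tumors and ERBB3 at 0 and 0.0312 and at 1.74 to 2.14, while the summed list was at 7.87 to 8.41 and at 7.75 to 11.2 CPM. Of 8 pericyte and smooth muscle markers 3 were higher and 2 lower, with ABCC9 at 0.464 and 0.500 CPM in DMSO cells and 4.32 to 15.1 in control tumors and MYH11 at 0.312 and 0.437 and at 5.35 to 9.06, while the summed list was at 34.8 to 37.3 and at 31.1 to 43.3 CPM. Higher too were 3 of 5 tested endothelial and 3 of 6 leukocyte markers, and of 7 fibroblast markers 1 was higher and 5 lower. Over all genes tested 31.5% were higher and 11.4% lower. Of genes under 1 CPM in DMSO cells, as SOX10, ERBB3, ABCC9 and MYH11 were, more were higher. The share was 53.1% with no opposite-strand gene at 1 CPM or more and 84.6% opposite a far more abundant gene. Genes opposite these markers are not given here. The part of these cell types in the tumor values was not tested.

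The 7 higher genes opposite a more abundant gene are described first. COL10A1, a network collagen of growth cartilage, had no count in any cell library and was at 4.16, 3.37, 3.49, 3.87 and 3.51 CPM in control and 2.52, 3.02, 2.56 and 3.85 in RA tumors, at least 84.2-fold higher than a floor of 3 counts over the DMSO group. It lies opposite NT5DC1 (30.8 CPM in DMSO cells, 27.7 in control tumors). MMP21 (EDRF1 opposite, 29.4 CPM in DMSO cells) had no count in DMSO and 1.35, 1.28, 1.54, 1.22 and 1.83 CPM in control and 1.51, 1.44, 1.06 and 1.21 in RA tumors, at least 33.1-fold higher. It had 0 and 0.0279 CPM after 1 day, 0 after 3 days and 0.0331 and 0.0641 at 6 days. MMP19 (TMEM198B opposite, 12.9 CPM) was at 0.0273 and 0.0937 CPM in DMSO cells and 1.84, 1.56, 1.18, 1.27 and 1.68 in control and 1.29, 1.29, 1.24 and 1.40 in RA tumors (4.58 ± 0.49), and at 0.0563 and 0.0279 after 1 day, 0 and 0.0310 after 3 days and 0.0331 and 0 at 6 days. COL19A1 was at 0.628 and 0.875 CPM in DMSO cells and 79.9, 64.7, 82.6, 49.8 and 82.1 in control tumors (6.58 ± 0.49), with 55.2, 121, 105 and 63.8 in RA tumors. The groups of cells and tumors did not overlap. In control tumors the opposite gene LMBRD1 had a mean of 21.4 CPM, below that of COL19A1. COL4A3 (5.53 ± 0.68), MMP25 (2.69 ± 0.72) and COL9A3 (1.34 ± 0.24) complete the 7. The strand setting of the counting is not given in the sources used here. For these 7 genes, and for others opposite an expressed gene, reads of the other strand therefore cannot be told apart from their own.

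Among the genes without such a neighbor, integrin chains, laminin chains, collagens and MMPs were higher in tumors. ITGA5, the fibronectin receptor chain, was at 0.737 and 0.625 CPM in DMSO cells and 9.99, 14.7, 13.3, 16.3 and 13.5 in control and 12.2, 10.4, 12.0 and 11.6 in RA tumors (4.30 ± 0.24, FDR 3.7e-12). ITGA6 (2.80 ± 0.20) and ITGA3 (1.15 ± 0.14) were higher too, with ITGA3 at 10.8, 12.3, 12.1, 12.2 and 12.9 CPM in control and 18.2, 13.1, 13.1 and 12.7 in RA tumors, and so were ITGB2 (2.20 ± 0.81) and ITGB3 (1.58 ± 0.59). Of the laminins, LAMA2 had no count in DMSO cells and a mean of 0.977 CPM in control tumors, at least 22.4-fold higher, and LAMA3 (3.72 ± 0.81), LAMA4 (1.31 ± 0.19), LAMB3 (2.18 ± 0.30) and LAMB4 (3.64 ± 0.72) were higher. Of the collagens, COL1A2 (2.68 ± 0.48), COL4A4 (3.58 ± 0.32), COL5A3 (2.98 ± 0.71), COL8A1 (3.63 ± 0.63), COL8A2 (2.41 ± 0.40), COL9A1 (2.58 ± 0.68), COL13A1 (2.24 ± 0.42), COL20A1 (3.00 ± 0.52), COL22A1 (1.76 ± 0.36) and COL28A1 (1.84 ± 0.35) were higher, most of them near or under 1 CPM, as were MMP9 (1.98 ± 0.82) and MMP10 (3.9 ± 0.79). The ITGB2 call was lost without DMSO library 1 (FDR 0.198), that of ITGB3 without either DMSO library or control tumor 2 or 4 (FDR up to 0.0946), and that of MMP9 without either DMSO library or control tumor 2, 3 or 4 (FDR up to 0.164). No removal of mouse reads is stated for the tumors, so host transcripts may add to these values, and their part was not tested.

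ITGA4 and ITGA7 were also higher (1.99 ± 0.18 and 2.29 ± 0.27) and lie opposite expressed genes at under 10 times their level. The strand limit holds for them as well. BLOC1S1, opposite ITGA7, was at 19.8 CPM in DMSO cells and 13.9 in control tumors. ITGA4 was at 69.9, 72.3, 92.5, 56.3 and 71.8 CPM in control and 54, 66.7, 65.8 and 84.4 in RA tumors, all above the DMSO libraries, and CERKL opposite was at 231 CPM in control tumors.

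Lower in tumors were 4 of 5 lysyl oxidases and several abundant chains of the cultured cells. LOXL1 was at 19.3, 18.4, 15.5, 20.1 and 20.3 CPM in control and 15.5, 12.8, 14.3 and 17.2 in RA tumors (−1.39 ± 0.09), LOXL2 at 1.08, 0.664, 0.667, 1.38 and 1.05 in control and 0.671, 0.736, 0.928 and 0.588 in RA tumors (−1.79 ± 0.23). LOX was at 52.6, 71.4, 72.4, 48.0 and 40 in control and 60, 96.4, 66.8 and 73.5 in RA tumors (−1.11 ± 0.20, and −0.99 without control tumor 5), with LOXL4 at −1.40 ± 0.24. COL5A1 was at 5.56, 5.45, 4.16, 9.32 and 5.71 CPM in control and 7.38, 5.70, 4.64 and 5.35 in RA tumors (−2.88 ± 0.17). COL26A1 was at 0.702, 1.42, 1.44, 1.02 and 1.26 CPM in control and 1.73, 2.35, 2.78 and 1.01 in RA tumors (−3.03 ± 0.22). COL6A3 was at 0.270, 0.332, 0.872, 1.17 and 0.209 CPM in control and 0.559, 0.368, 0.486 and 0.457 in RA tumors (−2.31 ± 0.35). ITGA1 was at 40.8 and 40.3 CPM in DMSO cells and 4.81, 8.15, 8.67, 8.60 and 6.49 in control and 6.60, 8.02, 7.60 and 7.83 in RA tumors (−2.46 ± 0.13). In each of these 7 genes every control tumor lay below both DMSO libraries. MMP24 (−1.71 ± 0.09), ITGAV (−1.55 ± 0.07), ITGA11 (−1.14 ± 0.32), COL2A1 (−1.08 ± 0.18), COL4A1 (−1.19 ± 0.13), COL4A2 (−1.52 ± 0.08), LAMA1 (−1.65 ± 0.13) and LAMA5 (−1.15 ± 0.19) were lower as well. Without control tumor 3, ITGA11 was at −0.95 and COL2A1 at −0.99, and without DMSO library 2 ITGA11 was at −0.96. COL3A1 was called lower without control tumor 4 (−1.89, FDR 0.000949), the tumor with the most COL3A1. LAMB1, LAMC1, ITGB1, MMP16, MMP2 and COL6A1 were not called between control tumors and DMSO cells.

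The remaining genes described library by library in culture had these levels in tumors. LAMA1 was at 9.61, 14.2, 14.9, 13.6 and 10.2 CPM in control and 9.51, 12.6, 10.2 and 12.9 in RA tumors, LAMB1 at 272, 294, 309.6, 331 and 300.4 CPM in control and 316, 282, 306 and 273 in RA tumors, and LAMC1 at 58.8, 62.2, 58.4, 55.7 and 61.2 CPM in control and 65.2, 61.1, 64.1 and 61.5 in RA tumors. COL4A1 was at 7.88, 6.16, 6.21, 8.71 and 6.49 CPM in control and 8.28, 8.43, 6.89 and 7.21 in RA tumors, and COL4A4 at 4.54, 3.51, 2.51, 2.75 and 2.67 CPM in control and 3.08, 2.54, 2.61 and 3.69 in RA tumors. Control and RA tumors overlapped in all 5 of these laminin and type IV collagen genes. COL6A1 was at 60.2, 43.8, 42.6, 31.6 and 33.5 CPM in control and 57.3, 64.6, 49.1 and 65.2 in RA tumors, COL6A6 at 3.83, 1.56, 2.51, 1.53 and 2.25 CPM in control and 1.90, 1.73, 2.39 and 2.74 in RA tumors, and COL13A1 at 0.972, 0.948, 0.667, 0.662 and 0.943 CPM in control and 1.68, 1.10, 0.884 and 0.751 in RA tumors. ITGB1 was at 132, 146, 144, 136 and 157 CPM in control and 125, 151, 151 and 139 in RA tumors, MMP16 at 140.2, 165, 163, 128 and 153 CPM in control and 129.8, 151, 154 and 164 in RA tumors, and MMP24 at 40.2, 38.5, 44.9, 33.8 and 40 CPM in control and 38.5, 44.3, 46.8 and 50.6 in RA tumors. These 6 overlapped between control and RA tumors too.

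**Figure D4:**
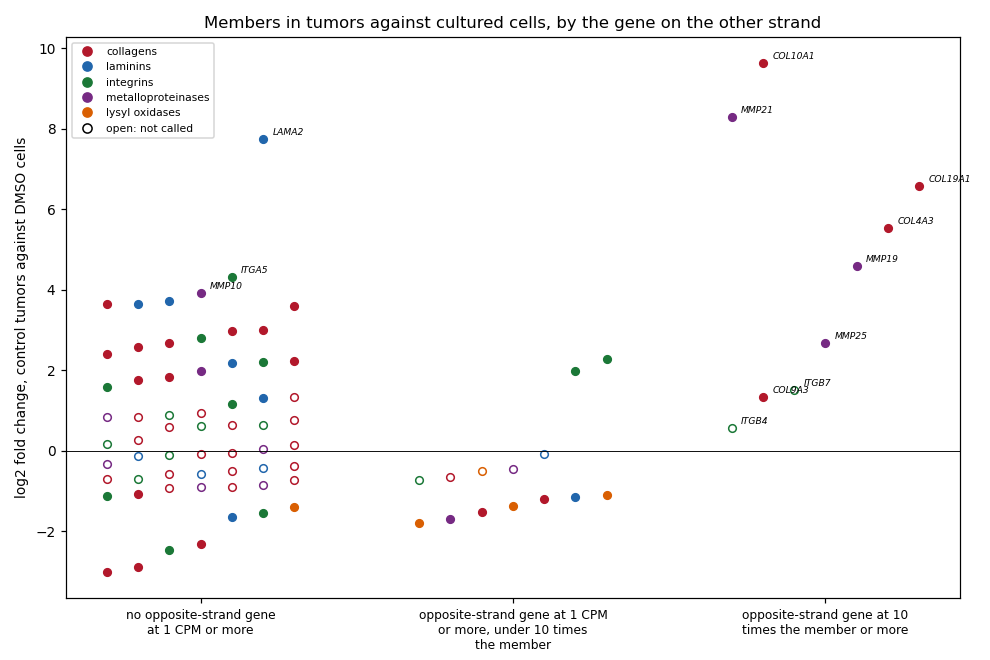
Log2 fold change of control tumors (n = 5) over DMSO cells (n = 2) for 85 of the 86 tested genes (y axis), in 3 columns by the level in DMSO cells of the highest gene on the opposite strand, filled where called and colored by class. COL10A1, MMP21, COL19A1, COL4A3 and MMP19 in the right column lie above 4, as do LAMA2 and ITGA5 in the left one, and fitted values of genes with no count in DMSO depend on the prior count.

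Of the partner genes tested in tumors against DMSO cells, 5 of 24 collagen-processing genes were higher and 9 lower, 4 of 8 other basement membrane proteins higher and 2 lower, 5 of 28 other matrix glycoproteins higher and 12 lower, 2 of 20 adhesion adaptors higher and 7 lower, 1 of 9 other receptors higher and 3 lower, and 1 of 5 metalloproteinase inhibitors higher and 1 lower, beside 31.5% higher and 11.4% lower of all genes tested. HSPG2 (−3.18 ± 0.10), NID1 (−2.68 ± 0.23) and PCOLCE (−2.40 ± 0.08), which speeds procollagen trimming, were lower, and SDC2 (3.12 ± 0.22) and NCAN (3.02 ± 0.13) higher.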

How the data were processed

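RNA-seq of 8 libraries of CHP-134 cells and 9 of CHP-134 tumors was analysed. As the submitters' processing notes name them, the authors used Trim Galore 0.4.4, STAR 2.7.10a on hg38 and RSEM 1.3.3, and deposited expected counts per gene. The annotation release, the strand setting and any removal of mouse reads are not given in the sources used here. As the study describes it, cells were prepared with the Illumina Stranded Total RNA kit and tumors with the KAPA RNA HyperPrep kit, both with ribosomal RNA removed. The deposited tables held 60754 entries for cells, 92 of them spike-ins that were left out, and 60662 for tumors, and 7.55% and 14.66% of values were not whole. Only the cell table listed spike-ins, though the study describes adding them to the tumor libraries, and this difference was not resolved.

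Expected counts were rounded and scaled by TMM. Genes under a minimum count of 10 (edgeR filterByExpr) were left out. edgeR 4.0.16 (R 4.3.3) quasi-likelihood fits covered 20237 genes over the 8 cell libraries, 21098 over the 9 tumor libraries, and 25787 over all 17 for tumors against cells and the difference of retinoid effects, with no covariate. A call needed a Benjamini-Hochberg FDR under 0.05 over all genes tested and a fold over 2. Levels are TMM-scaled CPM over all 17 libraries. The script was tested on simulated counts. Gene positions and overlaps come from the reference annotation (hg38). Start windows come from RefSeq (GRCh38).

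Values in every library are given for the 3 genes of each of the 5 classes with the highest CPM per kb in any group, and for the 5 called genes with the largest rise and the 5 with the largest fall at 6 days, in RA tumors and in tumors against DMSO cells that had a group mean of at least 1 CPM. The results of 1 gene are not reported here, though counts over the genes include it. Other genes given library by library were chosen after their values were seen. The genes and lists were chosen with earlier results of these data known. Alternatives were RLE scaling, no filter, DESeq2 1.42.0, no fold threshold, a replicate block, 1 fit over 17 libraries and leaving out each library. The biological coefficient of variation was 13.88% in the tumor fit and 2.65% in the cell fit. Floors cover counting error only.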

Additional observations from a re-analysis of the deposited data

Results flagged for a closer look

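The retinoid effect differed between tumors and culture for 35 genes in the edgeR fit over all 17 libraries, as the tumor log2 fold change minus that of 6 days of ATRA. Compound, dose, time and host differ between these arms and cannot be told apart. Where the tumor change is small, the sign of the value is that of the culture change reversed. The value was negative for 20 genes. Collagens among them were COL4A3 (−5.62), COL25A1 (−3.81), COL4A4 (−3.60), COL13A1 (−3.14), COL20A1 (−2.44), COL26A1 (−2.16), COL28A1 (−1.92), COL11A1 (−1.87), COL22A1 (−1.65), COL24A1 (−1.62), COL11A2 (−1.39) and COL9A3 (−1.03). Also among them were the laminin chains LAMA2 (−4.65) and LAMA5 (−3.34), the integrin chains ITGA3 (−2.96) and ITGA6 (−2.36), and the enzymes LOXL4 (−3.60), MMP14 (−2.75) and MMP2 (−1.71). LAMA2 had no count and COL4A3 had 1 count in DMSO cells, so the sizes of these 2 values depend on the prior count. The value was positive for 15 genes. Of these, 6 were integrin chains, ITGA4 (3.56), ITGA2 (2.30), ITGA5 (2.12), ITGA11 (1.90), ITGA1 (1.42) and ITGAV (1.25). The collagens were COL6A6 (2.75), COL4A1 (2.57), COL14A1 (2.03) and COL4A2 (1.25), the laminin chains LAMA1 (2.39), LAMB3 (1.58) and LAMC3 (1.48), and the enzymes LOX (2.87) and MMP16 (1.09). Calls of COL11A1 (−1.80 at the least), COL9A3 (−0.87) and LAMA2 (−4.53, FDR up to 0.127) were lost in 4 or 5 of the fits that each left out 1 library, DMSO library 1 and ATRA library 2 of 6 days among them. COL22A1 (−1.26) was not called without DMSO library 1, COL24A1 (−1.32) without DMSO library 2 or ATRA library 2 of 6 days, and LAMB3 (1.11) without DMSO library 1 or ATRA library 2 of 6 days. COL1A1 was called without control tumor 4 (1.84, FDR 0.00561).

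Dixon's test set 2 tumors apart from the others of their group. ITGA3 was at 18.2 CPM in RA tumor 1, against 12.7 to 13.1 in the other RA tumors. LOXL4 was at 1.62 CPM in control tumor 1, against 0.943 to 1.13 in the other control tumors, and that tumor also had the most MYH4 and ACTA1. Of 58 groups tested, chance alone flags about 1 in 20.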

How the results depend on the processing

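Calls of single genes kept their direction in every alternative: of 180 calls, 0 were reversed, and 27 were lost in at least 1 fit without a library. RLE scaling kept 179 and lost 1, no filter on low counts lost 4, DESeq2 lost 9, and the fit over all 17 libraries kept 81 of the culture and RA-tumor calls it could test and lost 14. With no fold threshold the count of genes higher was 13 at 1 day, 21 at 3 days, 28 from 3 to 6 days and 3 in RA tumors, and the count lower was 19 at 1 day, 28 at 3 days, 32 at 6 days, 28 from 3 to 6 days and 29 in tumors against DMSO cells. Over all genes tested the counts higher were 2653, 4435 and 6886 of 20237 in cells and 296 of 21098 in RA tumors. Those lower were 2686, 4678, 7366 and 6896 of 20237 in cells and 7608 of 25787 in tumors against DMSO cells. In the fit over all 17 libraries 1 gene was lower at 1 day and 5 at 3 days, beside 50 and 404 of all 25787 genes. Counted over genes with no opposite-strand gene at 1 CPM or more, an alternative chosen after seeing the data, 23 were higher and 9 lower in tumors than in DMSO cells.

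Leaving out each library gave 1 to 3 genes higher and 4 to 5 lower at 1 day, 7 to 9 and 7 to 9 at 3 days, 22 to 25 and 20 to 21 at 6 days, 14 to 18 and 11 to 15 from 3 to 6 days, 1 and 0 to 1 in RA tumors, 29 to 32 and 14 to 17 in tumors against DMSO cells, and 14 to 17 and 16 to 22 for the difference of effects. The replicate numbers did not pair the samples: deviations of same-numbered libraries correlated at −0.03 to 0.01 in cells and −0.33 to 0.11 in tumors. The replicate block lost 3 calls, ITGB5 at 6 days (−1.0), and LOX (−0.98) and ITGB2 (1.97) in tumors against DMSO cells. Except where a fit shows it by its construction, the cause was not tested. Genes under about 1 CPM rest on few counts in tumors, where the libraries hold 17266558 to 29078889 counts.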
